A study of Mus musculus with 17 samples.

Results

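Lung-derived CD44high cell lines were compared with the primary mammary fat pad (MFP) tumor cells of the same mouse model. The comparison rests on 4 bulk RNA-seq libraries, 2 lung CD44high and 2 MFP, out of 14 bulk libraries and 17 libraries in the whole series. Members were chosen by their sample labels, and 12689 of 55450 deposited genes were tested, those that reached 1 TPM in 2 or more libraries among these 4. TPM, a length-corrected unit of transcript abundance, gives the share of a library's transcripts that a gene makes up.

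All cells came from 10 female FVB/NJ mice carrying MMTV-PyMT, 10 to 12 weeks old, in which the mouse mammary tumor virus promoter drives the polyoma middle T antigen in mammary epithelium. The transgene was shared by every group, and no group was treated. Tumor-bearing organs were dissociated and cultured for about a month in conditions that disfavor fibroblasts, and cells with high surface EpCAM were then sorted by low or high CD44. The MFP libraries are labelled only as primary tumor, with no CD44 status. The 2 libraries of a group were distinct clonal isolates from different mice, and groups can share mice, so p-values measure the spread between isolates, and with 2 against 2 libraries an exact permutation test cannot go below a two-sided p of 0.333. Further groups served as reference, the lung CD44low lines (2 libraries) and the lymph node (LN) and bone marrow (BM) CD44high lines (4 libraries together).

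Carcinoma cells of the mammary gland are held together by tight junctions of claudins and occludin, adherens junctions of E-cadherin and desmosomes, and their cytoskeleton is built on keratins. In epithelial-mesenchymal transition (EMT) the transcription factors of the Zeb, Snail and Twist families repress these genes, and cells gain vimentin, matrix proteins and receptors typical of mesenchyme. CD44 is a hyaluronan receptor and EpCAM an epithelial adhesion protein, and both are used to sort breast cancer cells. The question of the comparison was which transcripts separate metastatic lung lines from the primary tumor.

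Transcript levels of the sort markers did not follow the sort labels. Epcam stood at 837 and 725 TPM in the MFP libraries and at 0.23 and 0.86 TPM in the lung CD44high libraries. It was also listed at 0 in both lung CD44low libraries, whereas the LN and BM CD44high libraries held 519 to 941 TPM. Cd44 stood at 400 and 210 TPM in MFP and at 21.9 and 12.1 TPM in lung CD44high, a log2 difference of -4.07 (SE 0.43, limma, adjusted p = 3.98e-05). Between lung CD44high and lung CD44low, at 12.2 and 21.6 TPM, the Cd44 ranges overlapped. The lung lines are therefore named here by their labels, and nothing is read from the words high and low about Cd44 or Epcam mRNA.

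The lung CD44high libraries carried more mitochondrial RNA than the others, with 18.4% and 15.9% of TPM from mitochondrial genes against 8.91% and 8.09% in MFP and 4.28% to 10.1% elsewhere. Mitochondrial ribosomal RNA made up 10.6% and 5.52% against 1.2% and 0.797%, and nuclear ribosomal RNA 5.27% and 0.786% against 0.0664% and 0.0407%. Since TPM is a share, these transcripts lower the values of all others. Rescaling each library without them moved the median log2 difference of all genes by 0.188, and median-ratio scaling moved it by 0.145. Replicates ranked genes alike, with a Spearman correlation across genes of 0.952 in lung CD44high and 0.966 in MFP.

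Against MFP, 845 genes rose and 1242 genes fell in lung CD44high lines, 6.66% and 9.79% of those tested. Such genes, called DEGs here, had an absolute log2 difference over 2 on the log2(TPM + 1) scale and a Benjamini-Hochberg adjusted p under 0.05. By adjusted p alone, 2317 genes (18.3%) were higher and 3299 (26%) lower. The median log2 difference over all genes tested was -0.13. The shares of 6.66% and 9.79% are the background for every count of list genes against MFP below. Both libraries of one group lay above both of the other in every one of the 2087 DEGs and in 76.2% of all genes tested. Of the genes that fell, 575 were under 1 TPM in both lung CD44high libraries, and 370 of those that rose were under 1 TPM in both MFP libraries. The log scale with a pseudocount of 1 understates the change of such genes.

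The largest rises among protein-coding genes were in Ccn5, Tnfrsf11b and Sparc. Ccn5, a matricellular protein of the CCN family, was at 0.3 and 1.32 TPM in MFP and at 2456 and 2276 TPM in lung CD44high. Tnfrsf11b, the soluble decoy receptor osteoprotegerin, was at 0.04 and 0 TPM against 531 and 615 TPM. Sparc, a collagen-binding matrix glycoprotein, was at 1.39 and 0.42 TPM against 762 and 1126 TPM. These genes were near absent from both MFP libraries and among the abundant transcripts of both lung CD44high libraries, with log2 differences of 10.41 (SE 0.35, adjusted p = 2.56e-08), 9.13 (SE 0.48, adjusted p = 2.43e-07) and 8.98 (SE 0.37, adjusted p = 5.45e-08).

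Masp1, a serine protease of the lectin complement pathway, rose by a log2 difference of 8.83, and Pros1, the anticoagulant protein S, by 7.54. Others of the 10 largest rises were Tceal8 (7.50), the glutathione transferase Gstm1 (7.07) and Bex4 (6.94), the last listed at 0 in both MFP libraries. Inmt, a methyltransferase abundant in lung, was listed at 0 in both MFP libraries and at 430 and 65.9 TPM in lung CD44high. Cyp2f2, a cytochrome of airway club cells, was at 0.07 and 0 TPM in MFP and at 199 and 173 TPM in lung CD44high.

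The largest falls among protein-coding genes included Prl2c3, Cldn3 and Prl2c2. Prl2c3, a proliferin of the prolactin family, made up 18129 and 13372 TPM in MFP and 6.71 and 11.7 TPM in lung CD44high, a log2 difference of -10.62 (SE 0.77, adjusted p = 2.33e-06). Its close copy Prl2c2 was at 1719 and 1228 TPM against 0.61 and 1.22 TPM, and how reads were divided between these near-identical genes is uncertain. Hspb1, the small heat shock protein HSP27, was at 519 and 535 TPM in MFP and listed at 0 in both lung CD44high libraries. Hspb1 was at 652 and 458 TPM in the lung CD44low lines and at 0 to 0.26 TPM in LN and BM CD44high. Wfdc2, a secreted protease-inhibitor-like protein of glandular epithelium, went from 1070 and 680 TPM to 0.35 and 0 TPM. The other large falls were the claudins Cldn3, Cldn4 and Cldn7, the keratins Krt14 and Krt7, and Epcam itself.

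**Figure D1:**
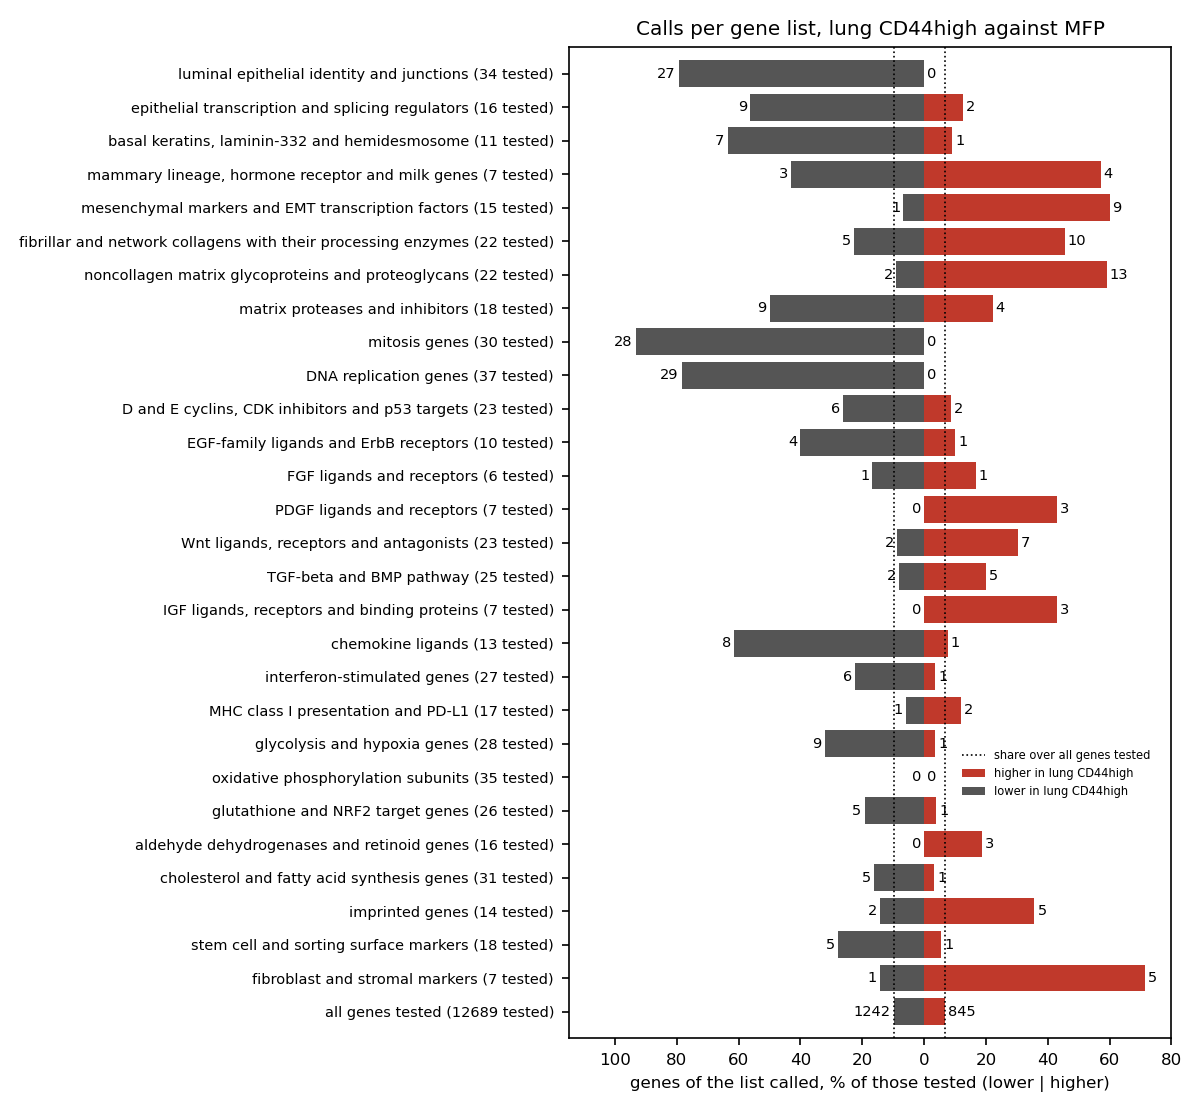
Share of each gene list called higher (red, right) or lower (dark grey, left) in lung CD44high than in MFP, in percent of the list's tested genes, for lists with at least 6 genes tested. Numbers are counts of genes, and dotted lines mark 6.66% and 9.79%, the shares over all genes tested. Junction, mitosis and replication genes lie to the left, and mesenchymal markers and matrix glycoproteins to the right.

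Epithelial identity genes fell together. Of 34 tested genes of luminal identity and cell junctions, 27 were lower and 0 higher, with a median log2 difference of -5.10. Cldn3, a tight-junction claudin, was at 984 and 958 TPM in MFP and listed at 0 in both lung CD44high libraries (log2 difference -9.92, SE 0.18, adjusted p = 3.83e-10). Cdh1, which encodes E-cadherin, was at 139 and 159 TPM against 0 and 0.03 TPM. The simple-epithelial keratin Krt8 was at 2966 and 2631 TPM in MFP and still at 5.26 and 27.8 TPM in lung CD44high.

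Most junction genes fell to near 0, while some keratins kept transcripts. Krt7 went from 724 and 466 TPM to 0.22 and 0.06 TPM, whereas Krt18, the partner of Krt8, went from 1761 and 1414 TPM to 10.1 and 58.9 TPM. Claudins Cldn4 (469 and 505 TPM to 0.07 and 0.06 TPM) and Cldn7 (428 and 321 TPM to 0.1 and 0 TPM) fell as well. The desmosome genes Pkp3 and Dsp and the membrane protease inhibitor Spint1 were listed at 0 in both lung CD44high libraries. Occludin (Ocln) kept 2.18 and 3.09 TPM from 47.3 and 61.2 TPM.

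A few epithelial genes did not pass. Cd24a, a surface glycoprotein of luminal cells, was at 184 and 220 TPM against 586 and 452 TPM in MFP (log2 difference -1.35). Spint2, a serine protease inhibitor, was at 186 and 154 TPM in lung CD44high against 652 and 481 TPM (log2 difference -1.72). Tjp1, the junction scaffold ZO-1, was at 32.8 and 18.5 TPM, above 7.94 and 8.15 TPM in MFP. All 3 had an adjusted p under 0.05 without reaching the minimum difference.

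**Figure D2:**
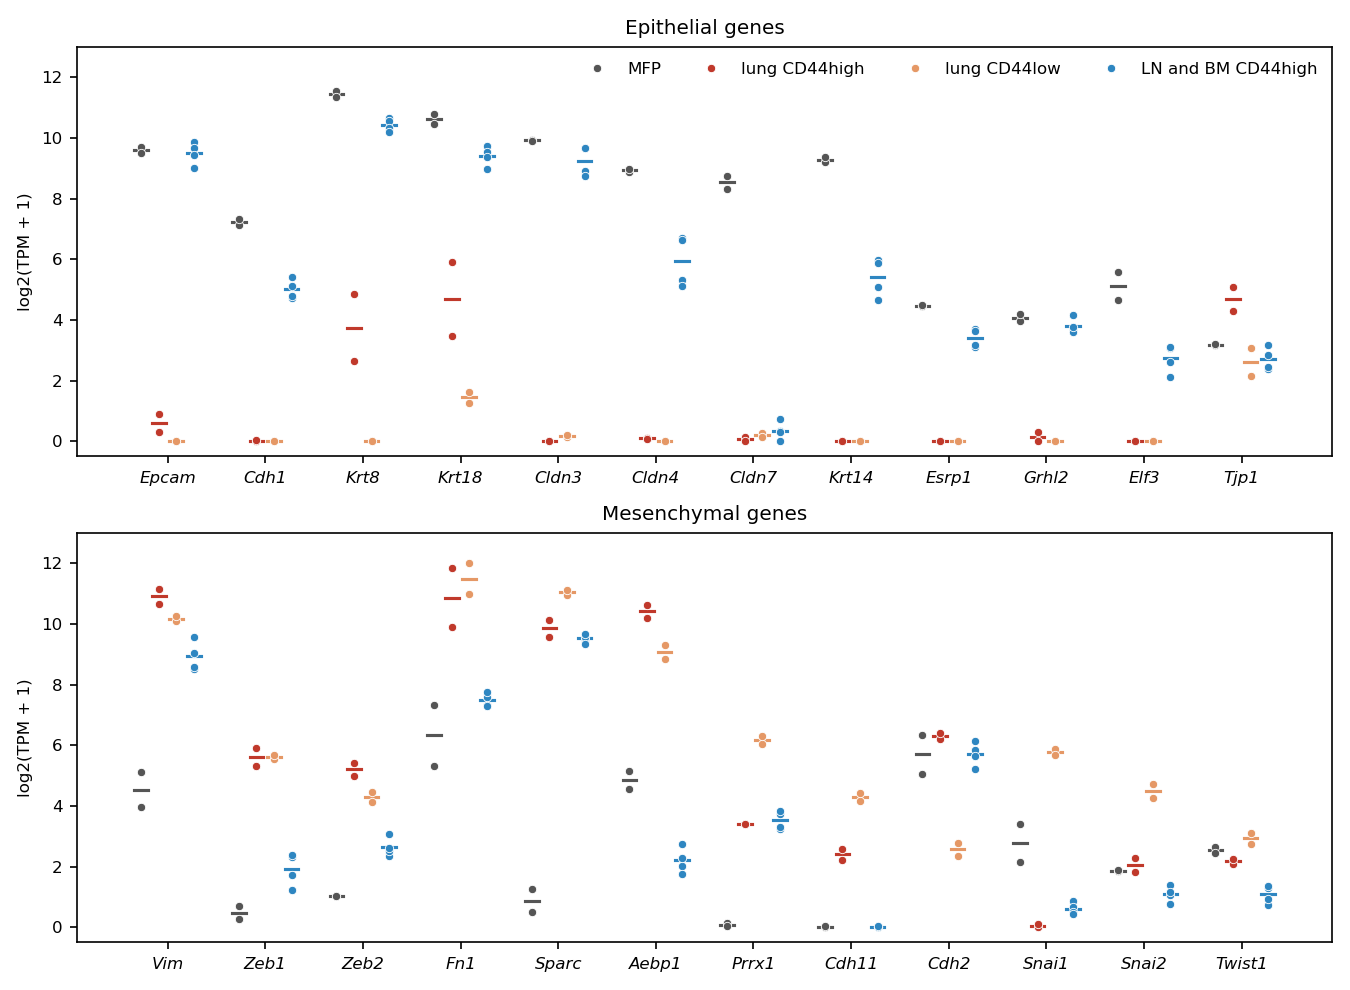
Expression of 12 epithelial genes (top) and 12 mesenchymal genes (bottom) as log2(TPM + 1), with a point per library and a line at the group mean for MFP (2 libraries), lung CD44high (2), lung CD44low (2) and LN and BM CD44high (4). Most epithelial genes sit at 0 in both lung groups and high in MFP, while Vim, Zeb1 and Zeb2 are higher in both lung groups than in MFP.

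Regulators of the epithelial program moved in both directions. Of 16 tested, 9 were lower and 2 higher, with a median log2 difference of -2.45. Elf3, an Ets factor of epithelial cells, was at 24.1 and 46.4 TPM in MFP and listed at 0 in both lung CD44high libraries. The splicing regulator Esrp1 went from 20.9 and 21.3 TPM to 0 in both, and Grhl2, an activator of Cdh1 and claudin genes, from 14.5 and 17.4 TPM to 0.24 and 0 TPM. Klf5, a zinc finger factor of epithelia, differed by a log2 value of -4.29. The exceptions were Gata3, a luminal mammary regulator, at 187 and 305 TPM in lung CD44high against 41.4 and 36.6 TPM (log2 difference 2.59, SE 0.41, adjusted p = 0.000581), and Trp63, a basal regulator, at 4.61 and 2.65 TPM against 0 in both.

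Basal keratins and laminin-332, the anchor of basal cells on their membrane, fell in 7 of 11 tested genes, with 1 higher. Krt14 was at 594 and 655 TPM in MFP and listed at 0 in both lung CD44high libraries. Lamb3 (74.2 and 90.5 TPM to 0.03 and 0 TPM) encodes a chain of laminin-332, and Itgb4 (141 and 100 TPM to 0.41 and 0.49 TPM) its integrin receptor. Both lung CD44high libraries were far below both MFP libraries for each. Cd151, a tetraspanin that binds laminin receptors, instead rose to 721 and 546 TPM from 45.2 and 41.9 TPM, and the integrin chain Itga3 (196 and 90.6 TPM) stayed within a log2 difference of 0.07.

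Among mammary genes, the receptors Esr1 and Pgr rose in lung CD44high. Of 20 mammary genes only 7 could be tested, of which 4 were higher and 3 lower, and the milk genes Csn2 and Wap were listed at 0 in the 4 libraries. The estrogen receptor Esr1 was at 0.66 and 1.55 TPM in MFP and at 30 and 16.1 TPM in lung CD44high (log2 difference 3.49, SE 0.33, adjusted p = 1.84e-05). Pgr, the progesterone receptor, was listed at 0 in both MFP libraries and at 12.5 and 6.05 TPM in lung CD44high. Xdh, a milk fat globule enzyme, rose from 1.45 and 4.34 TPM to 286 and 185 TPM. Among the genes that fell were Areg, Slpi, a secreted leukocyte protease inhibitor (1357 and 1275 TPM to 21.1 and 16.8 TPM), and Lcn2, an iron-siderophore carrier (356 and 36.7 TPM to 3.63 and 6.49 TPM).

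Promoters of the junction genes were searched for the E-box CAGGTG, the hexamer that Zeb and Snail proteins bind. RefSeq promoters of GRCm38.p6, the build the reads were aligned to, were matched for 24 of the 37 junction genes and gave 31 promoters, of which 250 bases before the start were read on both strands (CAGGTG or CACCTG). The E-box was present in 58.1% of them, against 17.2% of all 32851 promoters, 21% of those of genes that fell and 14.8% of those of genes that rose. At least 2 matches were present in 32.3% of junction promoters and 2.06% of all. A match describes letters and is no evidence of binding. Shown are the 150 bases before the start of 4 junction genes, those with at least 2 matches there among the junction genes called lower. Each match is in capitals. The windows lie at chr11:69965271-69965420 (+ strand) for Cldn7, chr3:88548280-88548429 (- strand) for Rab25, chr9:21312334-21312483 (- strand) for Ap1m2 and chr17:57062051-57062200 (+ strand) for Crb3.
Cldn7: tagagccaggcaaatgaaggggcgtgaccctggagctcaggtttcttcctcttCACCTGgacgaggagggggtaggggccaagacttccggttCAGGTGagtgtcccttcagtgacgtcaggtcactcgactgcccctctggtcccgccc
Rab25: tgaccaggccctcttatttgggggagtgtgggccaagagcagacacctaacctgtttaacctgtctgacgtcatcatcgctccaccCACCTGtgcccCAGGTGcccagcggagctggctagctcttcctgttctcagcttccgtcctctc
Ap1m2: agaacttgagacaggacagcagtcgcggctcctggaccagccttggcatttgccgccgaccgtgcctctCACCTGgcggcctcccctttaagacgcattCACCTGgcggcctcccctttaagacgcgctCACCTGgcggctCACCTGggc
Crb3: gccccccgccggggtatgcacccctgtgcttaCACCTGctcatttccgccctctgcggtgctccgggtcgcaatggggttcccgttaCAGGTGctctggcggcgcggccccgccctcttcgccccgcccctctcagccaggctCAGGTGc

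Besides Cldn7, these genes are Rab25, a vesicle-trafficking GTPase of epithelia, Ap1m2, a subunit of the epithelial sorting adaptor AP-1B, and Crb3, an apical polarity protein. All 4 were picked from the junction genes called lower, so their fall is no result of the search. In the other lists searched the E-box was present in 30.8% of 13 promoters of epithelial regulators, 12.1% of 33 of replication genes, 8.82% of 34 of matrix glycoproteins, 5.88% of 17 of mesenchymal genes and 0 of 26 of mitosis genes.

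Mesenchymal genes rose, with a selective set of EMT transcription factors. Of 15 tested mesenchymal markers and EMT factors 9 were higher and 1 lower, with a median log2 difference of 2.39. Vim, the intermediate filament vimentin, was at 33.5 and 14.5 TPM in MFP and at 1628 and 2294 TPM in lung CD44high (log2 difference 6.38, SE 0.36, adjusted p = 4.19e-07). Zeb1 was at 0.61 and 0.2 TPM against 58.6 and 38.6 TPM (log2 difference 5.13, SE 0.47, adjusted p = 1.4e-05), and Zeb2 at 1.05 and 1.02 TPM against 41.5 and 31.1 TPM. Zeb1, Zeb2 and Vim thus lay far above MFP in both lung CD44high libraries.

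The Snail and Twist factors did not follow. Snai1 went from 9.67 and 3.44 TPM to 0 and 0.07 TPM (log2 difference -2.73, SE 0.43, adjusted p = 0.000562). Snai2 (2.54 and 3.84 TPM in lung CD44high against 2.58 and 2.71 TPM) and Twist1 (3.29 and 3.79 TPM in lung CD44high against 5.25 and 4.47 TPM) were low in all 4 libraries and not called. Cdh2, which encodes N-cadherin, was at 73.3 and 83.5 TPM in lung CD44high against 80.8 and 32.5 TPM, with overlapping groups. Prrx1, a mesenchymal homeobox factor, rose from 0.1 and 0.02 TPM to 9.69 and 9.5 TPM, and Aebp1, a collagen-binding repressor, from 34.5 and 22.8 TPM to 1590 and 1174 TPM. The receptor tyrosine kinase Axl rose from 102 and 55.4 TPM to 638 and 310 TPM.

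Of 22 collagens and collagen processing genes tested, 10 were higher and 5 lower, with a median log2 difference of 1.63. Serpinh1, the collagen chaperone HSP47, was at 0.17 and 0.15 TPM in MFP and at 133 and 57.1 TPM in lung CD44high (log2 difference 6.25, SE 0.46, adjusted p = 2.66e-06). The microfibrillar chain Col6a1 rose from 0.33 and 0.26 TPM to 32.7 and 20.6 TPM, and Col12a1, a fibril-associated collagen, from 12.2 and 8.55 TPM to 327 and 111 TPM. The basement membrane chain Col4a1 went the other way, at 82.1 and 72.5 TPM in MFP and 0.33 and 0.97 TPM in lung CD44high. Pcolce2, an enhancer of procollagen processing, fell from 28.6 and 15.2 TPM to 0.25 and 0.02 TPM.

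The fibrillar type I collagen genes, hallmarks of fibroblasts, were not among them. Col1a1 was at 0.08 and 0.02 TPM and Col1a2 listed at 0 in both lung CD44high libraries, while the lung CD44low libraries held 83.3 and 257 TPM of Col1a1. Lox, which crosslinks collagen, was at 1.95 and 0.64 TPM in lung CD44high against 715 and 984 TPM in lung CD44low.

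Among the other matrix glycoproteins and proteoglycans 13 of 22 tested were higher and 2 lower, with a median log2 difference of 2.46. Besides Ccn5 and Sparc these were led by the proteoglycan decorin (Dcn), at 0.32 and 0 TPM in MFP and 166 and 78.9 TPM in lung CD44high, and the elastic-fiber protein Efemp2, at 1.97 and 1.9 TPM against 232 and 299 TPM. Fibronectin (Fn1) rose from 161 and 38.6 TPM to 3669 and 956 TPM, with its lung CD44high libraries far apart. Tenascin C (Tnc, 31 and 4.23 TPM to 0.09 and 0.23 TPM) and versican (Vcan, 15.9 and 10.4 TPM to 0.76 and 0.32 TPM) fell. The call of Tnc was lost without MFP library 1 or either lung CD44high library, and without a filter on low TPM.

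Matrix proteases fell more often than they rose, with 9 lower and 4 higher of 18 tested. Plaur, the urokinase receptor, went from 144 and 103 TPM to 0.66 and 1.03 TPM (log2 difference -6.07, SE 0.29, adjusted p = 1.52e-07). The stromelysin Mmp10 (79.2 and 17.2 TPM), the elastase Mmp12 (119 and 7.31 TPM) and the membrane-bound Mmp14 (10.8 and 9.04 TPM) were all listed at 0 in both lung CD44high libraries. Of the genes that rose, Mmp19 went from 0 and 0.05 TPM to 40.1 and 27.4 TPM, and the inhibitor Timp3 from 17.9 and 9.93 TPM to 401 and 426 TPM.

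Markers of other cell types were read beside these groups. Of 20 fibroblast and stromal markers 7 could be tested, of which 5 rose and 1 fell, and their summed level was 649 and 172 TPM in lung CD44high, 27.4 and 21.3 TPM in MFP and 5231 and 5770 TPM in lung CD44low. The risen markers were Inmt, Dcn, periostin (Postn, 0.04 and 0.02 TPM to 21 and 16.9 TPM), Pdgfra and Pdgfrb, while Npnt, an integrin ligand, fell from 20.8 and 16.3 TPM to 0. Without lung CD44high library 1, Pdgfra and Pdgfrb were not called and 3 markers were higher. The defining markers Thy1, Cd34, Fap and Col1a2 were listed at 0 in both lung CD44high libraries and Lum was at 0 and 0.05 TPM. In bulk RNA, fewer cells of a type and less RNA per cell cannot be told apart.

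Lung epithelial markers summed to 235 and 200 TPM, against 75.1 and 43.8 TPM in MFP. The same sum was 177 and 154 TPM in lung CD44low and 366 to 632 TPM in the lymph node and bone marrow CD44high libraries. Most of it in lung CD44high was Cyp2f2, with Scgb1a1, Sftpb and Nkx2-1 at 0 and Sftpc at 0.19 and 0.16 TPM, and the ciliated-cell factor Foxj1 fell from 55.6 and 23.5 TPM to 0.49 and 0.09 TPM. Of the mesothelial markers, Wt1 was listed at 0 in both MFP libraries and at 21.6 and 22.6 TPM in lung CD44high, whereas Msln went from 309 and 414 TPM to 0.19 and 1.87 TPM and Upk3b was at 0. Leukocyte markers summed to 68.6 and 202 TPM against 109 and 64.7 TPM, with Ptprc at 0 and 0.03 TPM, and 2 of 4 tested rose, S100a8 (15.9 and 136 TPM in lung CD44high against 4.05 and 2.65 TPM) and Lyz2 (6.15 and 18.5 TPM in lung CD44high against 0 and 0.09 TPM). Without either MFP library or lung CD44high library 2, with a pseudocount of 0.1 or with no filter, S100a8 was not called and 1 leukocyte marker was higher. Endothelial markers summed to 4.99 and 1.33 TPM against 26.7 and 14.8 TPM, with Egfl7 lower. Adipocyte markers summed to 12.9 and 14.5 TPM against 1.7 and 1.23 TPM, almost all of it lipoprotein lipase (Lpl), with Adipoq at 0. Their part in the mesenchymal and matrix results was not tested.

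Contractile and lung mesenchyme genes were mostly too low to test. Acta2, smooth muscle actin, was at 1.36 and 0.56 TPM against 657 and 711 TPM in lung CD44low. Of 4 contractile genes tested, Cald1 rose (589 and 690 TPM in lung CD44high against 162 and 112 TPM) and Smtn fell (5.2 and 1.91 TPM in lung CD44high against 72.3 and 48.9 TPM). Among lung mesenchyme factors, Osr1 (0.25 and 0.44 TPM to 22.2 and 34.7 TPM) and Foxf2 (1.44 and 0.94 TPM to 12.8 and 9.5 TPM) rose of 4 tested. Of 39 Hox genes only 2 could be tested and 0 were called.

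Several EGF-family ligands fell, while the PDGF receptors and Fgfr1 rose. In the EGF family 4 of 10 tested genes were lower and 1 higher. The ErbB ligand amphiregulin (Areg) went from 297 and 127 TPM in MFP to 0.11 and 0 TPM in lung CD44high (log2 difference -7.54, SE 0.50, adjusted p = 1.23e-06). Ereg (60.7 and 46 TPM to 0 and 0.05 TPM) and Epgn (39.2 and 33.6 TPM to 0.56 and 0.77 TPM) are further EGF receptor ligands. Of the receptors, Erbb3 fell from 9.76 and 18.5 TPM to 0 and 0.02 TPM, while Egfr was at 10 and 13.1 TPM in lung CD44high against 11.9 and 10.7 TPM, with overlapping groups. The ligand neuregulin (Nrg1) rose from 1.89 and 1.28 TPM to 10.5 and 13 TPM.

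The PDGF receptors rose while their ligands were not called. Pdgfra was at 0.35 and 0.48 TPM in MFP and 21.4 and 4.51 TPM in lung CD44high, Pdgfrb at 0.02 and 0 TPM against 5.92 and 2.09 TPM, and the receptor-like Pdgfrl at 1.24 and 0.74 TPM against 35.9 and 43.5 TPM. The ligand genes Pdgfa (39.5 and 57 TPM in lung CD44high against 145 and 122 TPM) and Pdgfb (4.83 and 6.5 TPM against 19.8 and 13.8 TPM) lay below MFP without reaching the minimum difference. The ligand gene Pdgfd was at 2.35 and 2.69 TPM in lung CD44high against 0.21 and 0.08 TPM and passed the adjusted p alone (log2 difference 1.62, SE 0.21, adjusted p = 0.000133), and Pdgfc was at 6.9 and 6.65 TPM in lung CD44high against 4.14 and 1.55 TPM. Without lung CD44high library 1, which had more Pdgfra and Pdgfrb, 1 PDGF gene in place of 3 was called. Fgfr1 rose from 2.67 and 3.07 TPM to 82.2 and 40.7 TPM, and Fgfbp1, a carrier of FGF ligands, fell from 4.86 and 3.35 TPM to 0, out of 6 FGF genes tested.

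**Figure D3:**
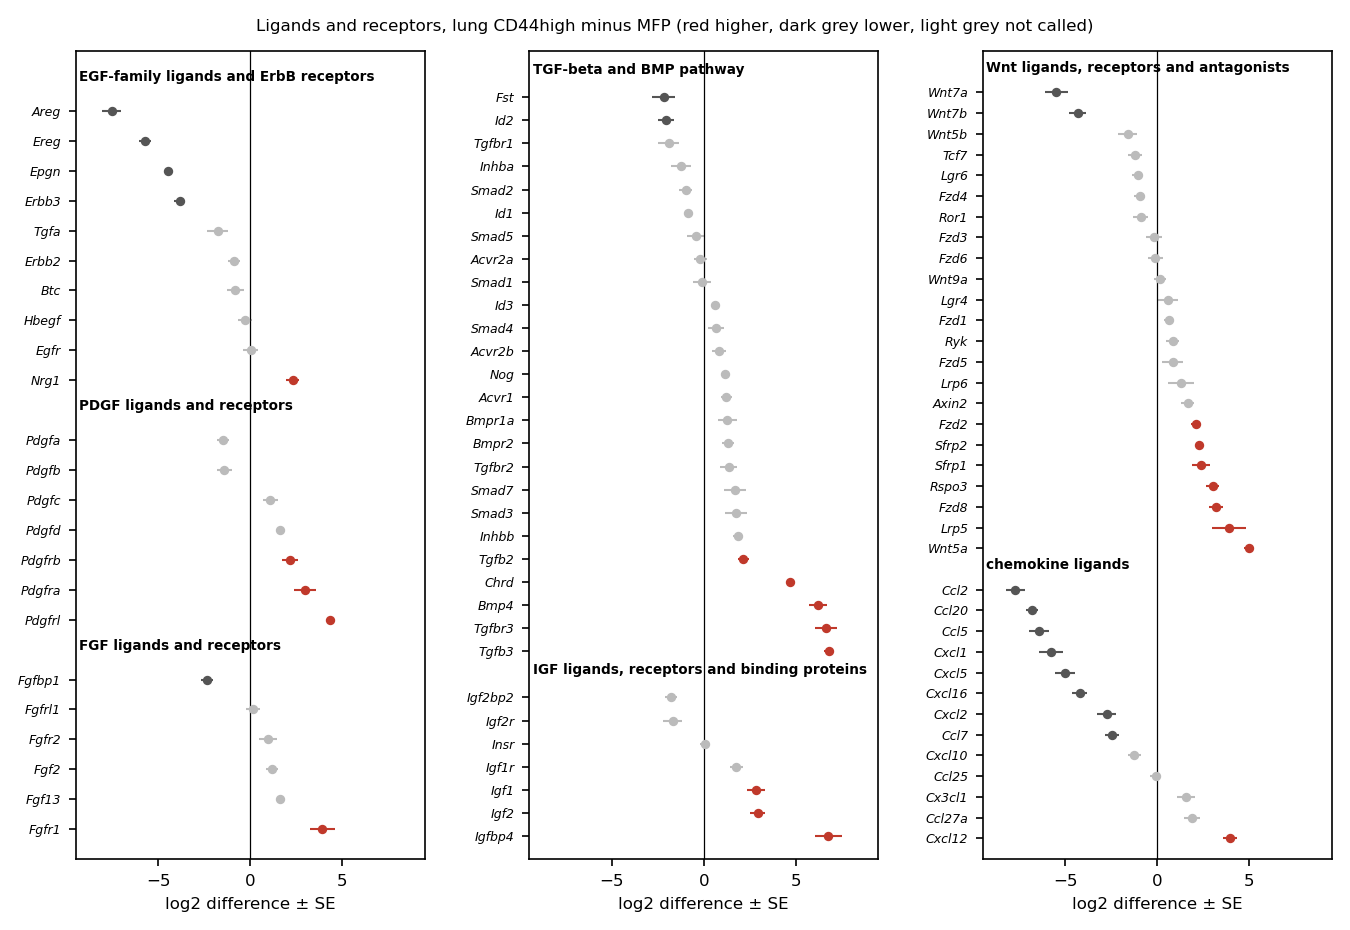
Log2 difference of lung CD44high minus MFP, with its standard error, for the tested genes of 7 ligand and receptor lists. Red points are called higher, dark grey lower, and light grey not called. Areg, Wnt7a and Ccl2 lie at the left, and Tgfb3, Tgfbr3 and Wnt5a at the right.

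Of 25 TGF-beta and BMP genes tested, 5 were called higher and 2 lower, with a median log2 difference of 1.13. These are 20% and 8%, beside 6.66% and 9.79% of all genes tested. Tgfb3, a TGF-beta ligand, was at 0.37 and 0.06 TPM in MFP and 142 and 125 TPM in lung CD44high (log2 difference 6.80, SE 0.28, adjusted p = 5.45e-08). The co-receptor Tgfbr3 was at 0.29 and 0.14 TPM against 182 and 80.2 TPM, and the ligand Bmp4 at 0.24 and 3.07 TPM against 128 and 216 TPM. Chordin (Chrd), which binds and blocks BMPs, rose from 0 and 0.07 TPM to 31 and 21.8 TPM. Tgfb1 was under 1 TPM in the 4 libraries and was not tested. Both calls of lower genes, Fst and Id2, were lost under median-ratio scaling.

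In the Wnt pathway 7 of 23 tested genes were higher and 2 lower. The canonical ligands Wnt7a (51.2 and 40 TPM to 0 and 0.03 TPM) and Wnt7b (44.6 and 41.5 TPM to 1.47 and 0.92 TPM) fell. Wnt5a, a mostly non-canonical ligand, instead rose from 0.54 and 0.06 TPM to 49.3 and 31.3 TPM, and the co-receptor Lrp5 from 2.47 and 3.27 TPM to 79.4 and 41.1 TPM. The target gene Axin2 was at 2.97 and 2.39 TPM against 0.06 and 0.29 TPM, above MFP with a log2 difference of 1.65 under the minimum. A filter of 5 TPM left 4 Wnt genes called higher.

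IGF ligands and a binding protein were higher, with 3 of 7 tested genes called higher and 0 lower. Igf1 was listed at 0 in both MFP libraries and at 5.49 and 6.88 TPM in lung CD44high, Igf2 at 1.76 and 0.13 TPM against 16.5 and 9.42 TPM, and Igfbp4 at 0.13 and 0.11 TPM against 206 and 71.4 TPM. Their receptor Igf1r was at 4.06 and 4.79 TPM in MFP against 19.1 and 16.1 TPM in lung CD44high without being called (log2 difference 1.78). Igf2 and Dcn are also among the imprinted genes, of which 5 of 14 tested rose, including Sgce (0 in both to 28.3 and 32.1 TPM) and Impact (6.02 and 5.79 TPM to 262 and 129 TPM), and 2 fell, led by Phlda2 (50.2 and 39.6 TPM to 0).

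Cell-division genes fell almost as a block. Of 30 mitosis genes, all tested, 28 were lower and 0 higher, with a median log2 difference of -3.71, and of 37 DNA replication genes 29 were lower and 0 higher, with a median of -2.79. Kif23, a cytokinesis motor, was at 110 and 84.8 TPM in MFP and 0 and 1.79 TPM in lung CD44high (log2 difference -5.87, SE 0.85, adjusted p = 0.000314). Ccna2, the S-phase cyclin A, was at 101 and 84 TPM against 0.32 and 2.84 TPM, and Birc5, survivin, at 161 and 146 TPM against 0.45 and 8.88 TPM. In each the lung CD44high libraries lay well below MFP, and library 1 lay below library 2.

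Replication genes were reduced but kept more transcripts. The helicase subunits Mcm5 (113 and 74.3 TPM to 1 and 6.94 TPM) and Mcm6 (158 and 87.4 TPM to 1.62 and 5.97 TPM), the ribonucleotide reductase subunit Rrm2 (211 and 104 TPM to 0.68 and 8.95 TPM) and the licensing factor Cdc6 (39.6 and 16 TPM to 0.22 and 0.77 TPM) fell furthest. The sliding clamp Pcna was still at 45.5 and 55 TPM in lung CD44high against 355 and 211 TPM. Mki67, the Ki-67 antigen, was at 0.05 and 1.24 TPM in lung CD44high against 8.01 and 6.69 TPM. Bub3, a checkpoint protein with roles outside mitosis, was at 190 and 178 TPM in lung CD44high against 215 and 213 TPM and was not called.

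The count of mitosis genes depended on 1 library. Without lung CD44high library 1, 15 mitosis genes were called lower in place of 28, with a median log2 difference of -2.93. Library 2 was the one with more mitotic transcripts, such as Cdk1 at 25.3 TPM against 1.64 TPM in library 1 and 356 and 264 TPM in MFP.

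**Figure D4:**
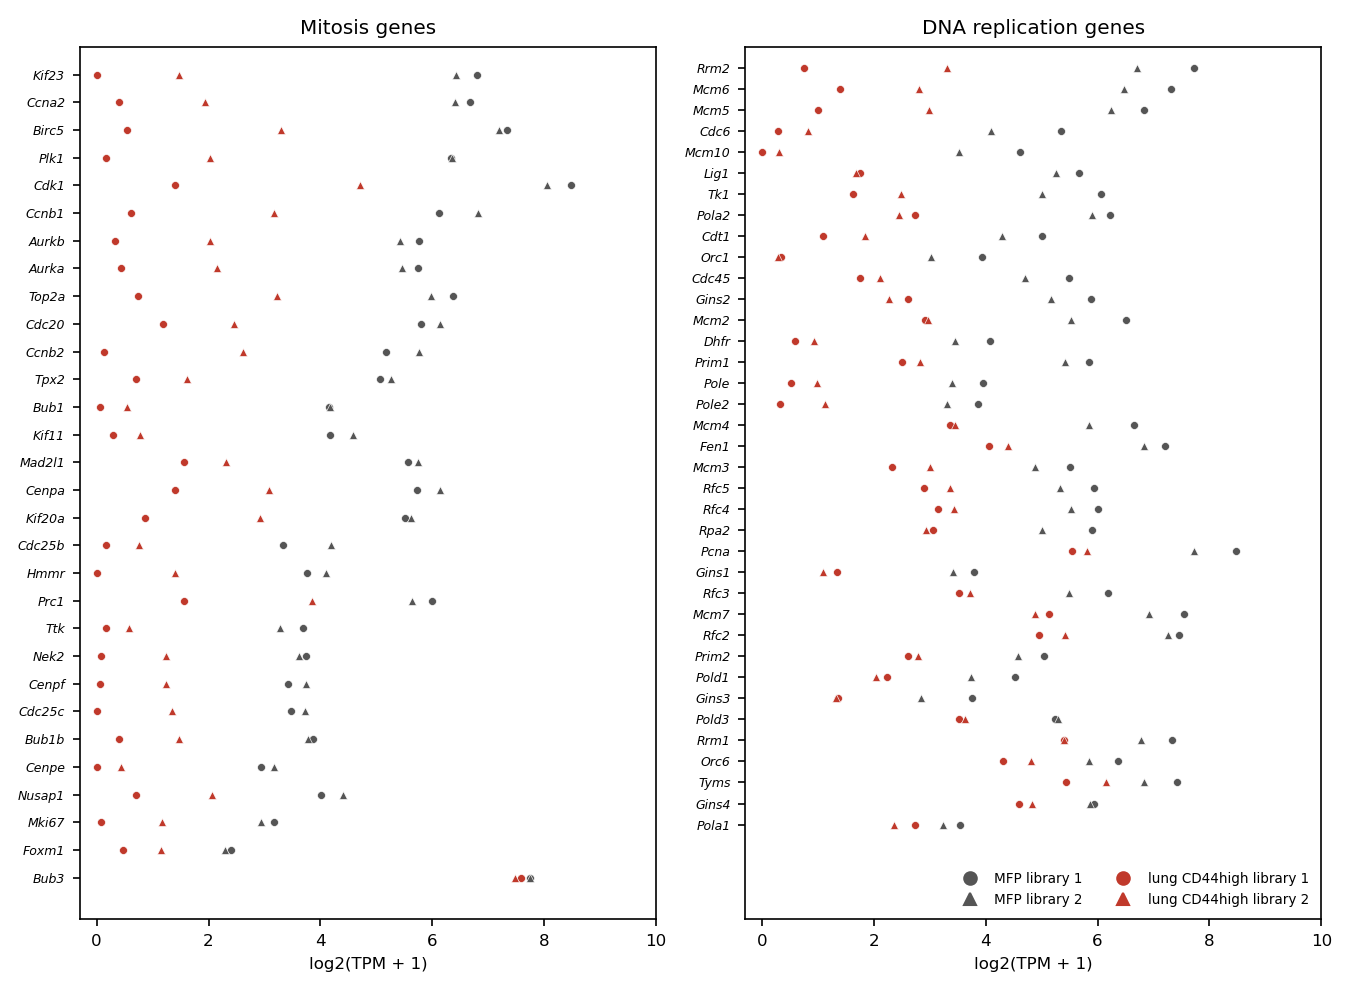
Mitosis genes (left) and DNA replication genes (right) as log2(TPM + 1) in each MFP library (grey) and each lung CD44high library (red), ordered by the difference between groups. Red points lie to the left of the grey ones for nearly every gene, and in the mitosis panel library 2 (triangles) mostly lies to the right of library 1 (circles).

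Promoters of mitosis genes were searched for the CCAAT box and the cell cycle homology region with its core TTTGAA, which are known from genes of G2 and mitosis. RefSeq promoters were matched for 24 of 30 mitosis genes and gave 26 promoters. CCAAT or ATTGG was present in the 250 bases before the start in 88.5% of them, against 33.8% of all promoters and 36.5% of those of genes that fell. TTTGAA or TTCAAA was present in 34.6%, against 16% of all promoters and 11.3% of those of genes that fell. Most mitosis promoters thus lacked the core, and promoters with both motifs were not counted. The 150 bases before the start of the 5 genes that fell furthest among those with both motifs there are shown to let the spacing be seen, with both motifs in capitals. They lie at chr10:69352913-69353062 (- strand) for Cdk1, chr11:99024190-99024339 (- strand) for Top2a, chr4:118437344-118437493 (- strand) for Cdc20, chr19:37376232-37376381 (+ strand) for Kif11 and chr7:80294326-80294475 (+ strand) for Prc1.
Cdk1: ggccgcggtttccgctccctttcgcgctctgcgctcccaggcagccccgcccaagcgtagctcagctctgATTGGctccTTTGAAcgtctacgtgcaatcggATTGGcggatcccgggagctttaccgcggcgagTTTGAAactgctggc
Top2a: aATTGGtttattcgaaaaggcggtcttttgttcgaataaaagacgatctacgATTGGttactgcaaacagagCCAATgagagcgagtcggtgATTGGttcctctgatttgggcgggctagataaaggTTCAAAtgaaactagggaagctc
Cdc20: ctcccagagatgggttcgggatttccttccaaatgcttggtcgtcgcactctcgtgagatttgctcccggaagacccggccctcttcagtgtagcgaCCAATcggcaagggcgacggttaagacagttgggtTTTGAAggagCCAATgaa
Kif11: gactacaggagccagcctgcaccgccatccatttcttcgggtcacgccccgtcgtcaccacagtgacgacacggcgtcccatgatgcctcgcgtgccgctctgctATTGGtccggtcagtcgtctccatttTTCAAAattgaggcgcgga
Prc1: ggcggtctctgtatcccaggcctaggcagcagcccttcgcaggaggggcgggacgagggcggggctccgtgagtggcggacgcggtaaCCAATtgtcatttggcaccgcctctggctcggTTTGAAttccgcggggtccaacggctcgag

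These genes encode the mitotic kinase, a topoisomerase, an activator of the anaphase-promoting complex, a spindle motor and a spindle midzone protein. In each of the 5, a CCAAT or ATTGG lies farther from the start than the nearest core. The windows of 150 bases were searched without regard to nucleosomes or to other start sites.

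Cyclins and inhibitors of their kinases did not move one way. Of 23 tested genes, which include p53 targets, 6 were lower and 2 higher. These are 26.1% and 8.7%, beside 9.79% and 6.66% of all genes tested. The G1 cyclins Ccnd1 (493 and 237 TPM to 22.9 and 53.3 TPM), Ccne1 (105 and 33.6 TPM to 1.38 and 7.08 TPM) and Ccne2 (62.1 and 23.6 TPM to 0.33 and 3.11 TPM) fell. Cdkn1a, the kinase inhibitor p21, fell as well, from 325 and 226 TPM to 14.1 and 24.9 TPM (log2 difference -3.78, SE 0.44, adjusted p = 7.04e-05), as did Cdkn2b, p15, from 66.2 and 51.9 TPM to 0.49 and 0.26 TPM. The inhibitor Cdkn2c, p18, rose from 2.21 and 3.59 TPM to 57.8 and 64.5 TPM, and Cdkn1b, p27, was at 32.2 and 19.2 TPM in lung CD44high against 6.06 and 5.94 TPM (log2 difference 1.89, below the minimum).

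Most chemokine genes tested fell. Of 13, 8 were lower and 1 higher, with a median log2 difference of -2.76. The monocyte attractant Ccl2 was at 280 and 220 TPM in MFP and 0.18 and 0.16 TPM in lung CD44high (log2 difference -7.73, SE 0.51, adjusted p = 1.21e-06). Ccl20 (122 in both to 0.19 and 0 TPM) and Ccl5 (159 and 162 TPM to 0.62 and 1.1 TPM) attract lymphocytes and dendritic cells, and Cxcl1 (862 and 371 TPM to 15.9 and 5.33 TPM) neutrophils. The gene called higher was Cxcl12, the ligand of Cxcr4, which rose from 2.38 and 0.4 TPM to 30 and 36.2 TPM. By the adjusted p alone, 3 were higher and 9 lower.

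Of the interferon-stimulated genes fewer were called, with 6 lower and 1 higher of 27 tested and 15 that did not pass an adjusted p of 0.05. Bst2, the antiviral protein tetherin, fell from 123 and 45.8 TPM to 4.88 and 10 TPM, and Oas1a from 10.5 and 4.16 TPM to 0.07 and 0.12 TPM. Usp18 (11.8 and 4.65 TPM to 0.23 and 0.65 TPM) and Trim25 (57 and 35.5 TPM to 15.4 and 5.1 TPM) fell by less. Without MFP library 1 the count of lower genes was 2, and without lung CD44high library 2 it was 3.

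Of 17 antigen presentation genes tested, 2 were called higher and 1 lower, 11.8% and 5.88%. These shares are near the 6.66% and 9.79% of all genes tested. The peptide transporter Tap2 rose from 11.6 and 7.81 TPM to 161 and 143 TPM (log2 difference 3.86, SE 0.36, adjusted p = 1.63e-05), and the immunoproteasome subunit Psmb8 from 2.6 and 0.29 TPM to 12.9 and 8.59 TPM. The class I heavy chain H2-K1 fell from 1509 and 1271 TPM to 310 and 298 TPM, a call that was lost when TPM were rescaled without mitochondrial and ribosomal RNA. H2-D1, a close relative with which it can share reads, was at 666 and 695 TPM in lung CD44high against 1335 and 1107 TPM and was not called.

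Glycolysis and hypoxia genes were lower in 9 of 28 tested and higher in 1. Gapdh, the glycolytic enzyme often used as a reference gene, was at 1055 and 1090 TPM in MFP and 165 and 244 TPM in lung CD44high (log2 difference -2.41, SE 0.30, adjusted p = 0.00012). Ndrg1 (102 and 242 TPM to 0.04 and 0.75 TPM) and the carbonic anhydrase Car9 (28.6 and 26.8 TPM to 0 and 0.07 TPM) are known hypoxia-induced genes. The aldolase Aldoc fell from 11 and 10.7 TPM to 0.08 and 0 TPM, whereas the enolase Eno2 rose from 1.01 and 1.51 TPM to 19.4 and 14.2 TPM. Lactate dehydrogenase Ldha (424 and 626 TPM in lung CD44high against 1446 and 1142 TPM) was not called, and the translation factor Eef1a1 was not called either, at 5202 and 4498 TPM in lung CD44high against 5110 and 5818 TPM.

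None of 35 nuclear-encoded subunits of oxidative phosphorylation was called higher or lower in limma, while 3 were higher and 4 lower by adjusted p alone. Their median log2 difference was 0.00, and 0.15 to 0.20 under both rescalings. Of the 13 mitochondrially encoded mRNAs, 3 were higher by adjusted p alone (mt-Nd2, mt-Co2 and mt-Atp8) and 2 lower (mt-Nd1 and mt-Nd6). The mitochondrial ribosomal RNA mt-Rnr2 was at 10358 and 6589 TPM in MFP and 99011 and 51046 TPM in lung CD44high. Mitochondrial mRNA as a whole made up 6.16% and 8.25% of TPM in lung CD44high against 4.27% and 4.23% in MFP.

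Of 26 genes of glutathione metabolism and the NRF2 response 5 were lower and 1 higher, and 15 did not pass the adjusted p. Gstm1 was at 0.77 and 0.9 TPM in MFP and 254 and 237 TPM in lung CD44high, whereas Gsta1 was at 63.8 and 94.4 TPM against 0, and Gsto1 at 472 and 534 TPM against 23.9 and 21.7 TPM. Both glutathione transferase families hold close paralogs whose reads can be split. Gsta4 (135 and 146 TPM to 18 and 22.7 TPM) and thioredoxin Txn1 (902 and 1068 TPM to 131 and 178 TPM) fell as well.

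Of 16 aldehyde dehydrogenase and retinoid genes tested, 3 were higher and 0 lower. Some aldehyde dehydrogenases serve as markers of stem-like breast cancer cells. Aldh3a1 rose from 30.8 and 41.4 TPM to 158 and 229 TPM and Aldh6a1 from 4.75 and 5.64 TPM to 26.8 and 22.7 TPM. Aldh1a1 was at 0 and 0.34 TPM in MFP and at 1.99 and 20.9 TPM in lung CD44high, with the libraries far apart, and at 610 and 601 TPM in lung CD44low. Without MFP library 1, 1 of the 3 was called. Among stem cell and sorting surface markers 5 of 18 were lower and 1 higher, beside 9.79% and 6.66% of all genes tested. The lower ones were, besides Epcam and Cd44, the integrin Itga6 (24.1 and 22 TPM to 0.21 and 0.88 TPM), Prom1 (7.82 and 9.87 TPM to 0 and 0.24 TPM) and Ly6a (214 and 98.2 TPM to 19.3 and 22.7 TPM).

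Of 31 cholesterol and fatty acid synthesis genes tested, 5 were called lower and 1 higher, beside 9.79% and 6.66% of all genes tested. Dhcr7 (204 and 151 TPM to 9.83 and 14.2 TPM) and Idi1 (109 and 37.6 TPM to 2.8 and 7.87 TPM) are enzymes of the sterol pathway. The desaturase Scd1 rose from 0.13 and 0 TPM to 14.5 and 9.78 TPM. Leaving out single MFP or lung CD44high libraries gave 3 to 9 genes called lower, with 3 without MFP library 1, 9 without MFP library 2 and 8 without lung CD44high library 2.

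Lung CD44high lines differed from lung CD44low lines in 386 genes that were higher and 840 that were lower, 3.04% and 6.62% of those tested. Genes were kept by the lung CD44high and MFP libraries, so genes expressed mainly in lung CD44low were left out. Bgn, at 7905 and 9601 TPM in lung CD44low, is an example. A filter over all 14 libraries gave 1350 lower genes. Sprr1a, a precursor of the cornified envelope, was at 200 and 203 TPM in lung CD44high, listed at 0 in both lung CD44low libraries and at 1.24 and 1.39 TPM in MFP. Hs3st1, a heparan sulfate sulfotransferase, was at 283 and 112 TPM against 0.29 and 0.57 TPM in lung CD44low and 16.9 and 12.9 TPM in MFP. Inmt likewise was at 0.54 and 0.91 TPM in lung CD44low. Prdx4, an endoplasmic reticulum peroxiredoxin, was near absent from lung CD44high, at 0.14 and 0 TPM, against 232 and 191 TPM in lung CD44low, 153 and 138 TPM in MFP and 179 to 252 TPM in LN and BM CD44high. Hspb1 and Fstl3, an activin-binding protein, were lower as well, Fstl3 at 0.27 and 0.42 TPM in lung CD44high against 208 and 212 TPM.

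Junction genes were higher and matrix genes lower in lung CD44high than in lung CD44low in part of each list. Of 34 junction genes 5 were higher, against 3.04% of all genes tested, and 0 lower, and of the 30 mitosis and 37 replication genes 0 were called in limma, with 1 and 4 past an adjusted p of 0.05. Krt8 (0 in both lung CD44low libraries), Krt18, Cd24a, Spint2 and Tjp1 were the 5 junction genes. The call of Tjp1 was lost without lung CD44high library 1 or lung CD44low library 1. Matrix glycoproteins were lower in 13 of 22 and higher in 0, with Dcn at 4091 and 4315 TPM and Mgp at 8436 and 8004 TPM in lung CD44low against 166 and 78.9 TPM and 63.8 and 15.1 TPM in lung CD44high.

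A set of 19 genes was called in opposite directions in the lung groups, each against the same MFP libraries. The direct difference between the lung groups follows from these opposite differences, so its call in all 19 is no separate result. Fstl3 was lower than MFP (15.4 and 6.56 TPM) in lung CD44high and higher in lung CD44low, with log2 differences of -3.05 and 4.24. Hs3st1 moved the other way, by 3.51 and -3.47. The protease Mmp14, at 0 in lung CD44high, was at 107 and 118 TPM in lung CD44low, and Ahr, the aryl hydrocarbon receptor, was at 0.25 in both lung CD44high libraries and at 98.9 and 104 TPM in lung CD44low. Gata3 and Snai1, described above, belong to the set as well, with Gata3 at 2.14 and 2 TPM and Snai1 at 58.4 and 50.6 TPM in lung CD44low.

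**Figure D5:**
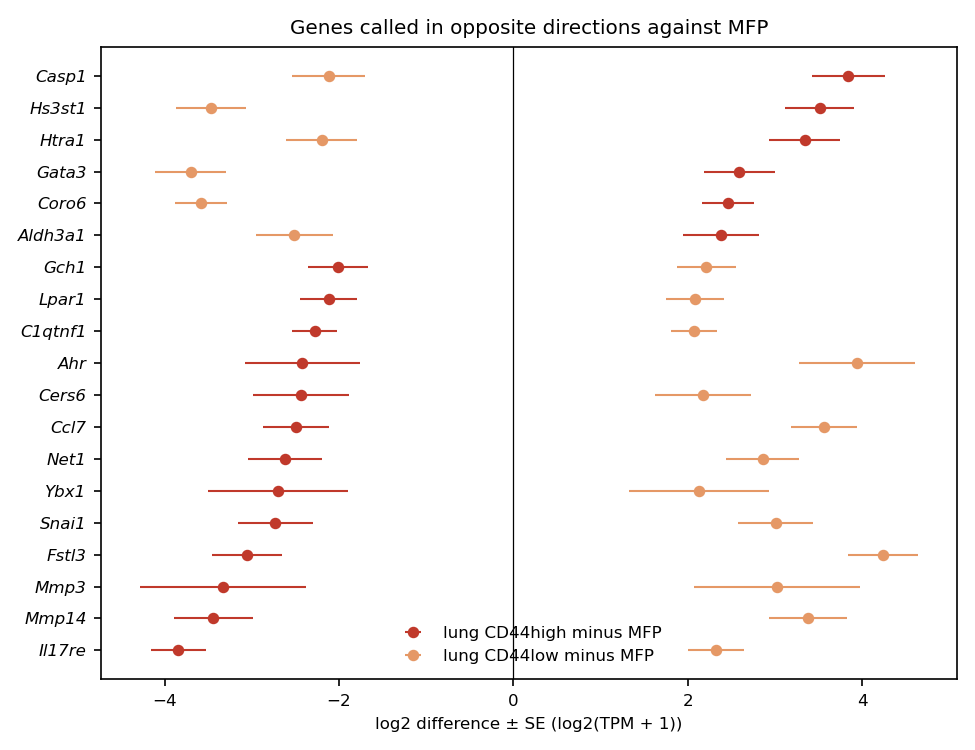
Log2 difference from MFP, with its standard error, in lung CD44high (red) and lung CD44low (orange) for the 19 genes called in opposite directions. The 6 genes at the top, from Casp1 to Aldh3a1, are higher in lung CD44high, and the other 13 are lower.

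Against the LN and BM CD44high lines, lung CD44high lines were higher in 1144 genes and lower in 809, 9.02% and 6.38% of those tested. Under median-ratio scaling the split was 831 higher and 1032 lower, and with TPM rescaled without mitochondrial and ribosomal RNA 1445 and 760, so the balance of directions depends on the scaling. Nox4, an NADPH oxidase, was at 549 and 318 TPM in lung CD44high, at 0 in the LN and BM CD44high libraries and at 6.78 and 5.82 TPM in MFP. Aebp1, at 1590 and 1174 TPM, was at 2.4 to 5.67 TPM in LN and BM CD44high. Birc5 reached 2641 to 3645 TPM there against 0.45 and 8.88 TPM in lung CD44high, Lcn2 2686 to 12527 TPM against 3.63 and 6.49 TPM, and Cxcl5 234 to 2555 TPM against 0 in both.

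Many junction, mitosis and replication genes were also lower than in the other CD44high lines. Of the junction genes 18 of 34 were lower in lung CD44high and 0 higher, and 29 of 30 mitosis and 30 of 37 replication genes were lower. Vim, at 364 to 762 TPM in LN and BM CD44high, was below the 1628 and 2294 TPM of lung CD44high without being called (log2 difference 1.98). Sparc was not called between these groups, at 652 to 823 TPM against 762 and 1126 TPM.

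A few broadly expressed genes were missing from a single group. At least 10 TPM in all 12 other libraries with under 1 TPM in both lung CD44high libraries was found for 10 genes, chosen after their values were seen. These were Ndrg1, Prdx4, Col4a1, the membrane proteins Fxyd5, Emp2, Aig1 and Il13ra1, the retrieval receptor Kdelr3, the Wnt antagonist Nkd2 and the mitochondrial Chchd10. The same pattern in MFP, under 1 TPM there and at least 10 TPM in the other 12, was found for 5 genes, among them Serpinh1, Col6a1, Tgfb3 and Tnfrsf11b. The fifth was Acyp2, an acylphosphatase listed at 0 in both MFP libraries and at 19.3 and 39.5 TPM in lung CD44high.

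Some DEGs also differed between the lung CD44high libraries. In 43 of the 2087 DEGs these libraries were more than 2 apart on the log2(TPM + 1) scale. The largest gaps were in the small RNA Rny3 (0 and 32.4 TPM, 69.2 and 69 TPM in MFP) and in AY036118, a long noncoding RNA that overlaps an annotated ribosomal RNA gene on chromosome 17 (10368 and 502 TPM, 0 in both MFP libraries). Next were Cdk1 (1.64 and 25.3 TPM) and S100a8 (15.9 and 136 TPM). Library 1, which held more AY036118, also held more nuclear ribosomal RNA, and library 2 more mitotic transcripts. The call of Rny3 was lost in most of the alternatives tried. Of the other genes named above, Ahr and Mki67 lost their call against MFP without either MFP library, and Axl, Cald1, Id2 and Psmb8 without MFP library 2. Aldh1a1, Aldh6a1, Lcn2, Trim25 and Usp18 lost it without MFP library 1. Ahr, Aldh6a1, Axl, Lrp5, Mki67, Pdgfra, Pdgfrb, Psmb8, Top2a and Trp63 lost it without lung CD44high library 1, and Ahr, Aldh1a1, Egfl7, Id2 and Trim25 without library 2.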

How the data were processed

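Bulk RNA was sequenced from cultured, sorted cells by a modified SMART-seq2 protocol. The authors aligned reads to mm10 with STAR, quantified genes of GENCODE with RSEM and deposited TPM. TPM keep no depth, so the depth of each library is unknown here beyond the minimum that the paper states. The authors' own comparisons and the single-cell libraries were not used here. TPM were transformed to log2(TPM + 1), genes that reached 1 TPM in 2 or more libraries among these 4 were kept, and limma 3.58.1 (R 4.3.3) was fitted to all 14 bulk libraries with 7 groups, an intensity trend and 7 residual degrees of freedom. DEGs had to differ by more than 2 in absolute log2 value, with p adjusted by Benjamini-Hochberg below 0.05. The same fit gave the contrasts with lung CD44low and with the mean of LN and BM CD44high.

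The members and gene lists were chosen with earlier results of these data known. Named genes were the sort markers, the 10 largest rises and falls among protein-coding DEGs, up to 4 called genes of each list, the 3 largest rises and falls in each further contrast, up to 4 genes called in opposite directions and up to 4 that differed most between the lung CD44high libraries. All further genes were chosen after their values were seen. Promoter sequences came from RefSeq (GRCm38.p6). The scripts were tested on simulated data. Alternatives were other scalings, filters, pseudocounts and fits, the replicate block and leaving out each library. Rescaling without mitochondrial and ribosomal RNA was chosen after seeing the data. The replicate numbers were not taken as pairs, since same-numbered lung CD44high and MFP libraries deviated together with a correlation of only 0.014. Over all pairs of groups it ranged from -0.248 (lung CD44low with lung CD44high) to 0.221 (BM CD44high with lung CD44low). Such values cannot show whether groups share mice.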

Additional observations from a re-analysis of the deposited data

Results flagged for a closer look

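Lung CD44high and lung CD44low lines moved in opposite directions from the same MFP libraries in 19 genes. The direct difference between the lung groups was called for each by limma, which follows from how the genes were chosen. Values are log2 differences of lung CD44high minus lung CD44low on the log2(TPM + 1) scale. The 6 genes higher in lung CD44high were Hs3st1 (6.98), Gata3 (6.29), Coro6 (6.04), Casp1 (5.96), Htra1 (5.54) and Aldh3a1 (4.89). The 13 lower ones were Fstl3 (-7.29), Mmp14 (-6.82), Ahr (-6.36), Mmp3 (-6.34), Il17re (-6.16), Ccl7 (-6.05), Snai1 (-5.74), Net1 (-5.48), Ybx1 (-4.83), Cers6 (-4.60), C1qtnf1 (-4.36), Gch1 (-4.22) and Lpar1 (-4.21). The call of Ahr against MFP was lost without any 1 of the MFP or lung CD44high libraries. That of Mmp3 was lost without MFP library 1 or either lung CD44high library. It was also lost in a fit of the 4 compared libraries only and with no filter on low TPM.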

How the results depend on the processing

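Several counts of DEGs moved by over 1.5 times. A pseudocount of 0.1 gave 1272 higher genes against MFP in place of 845, 718 in place of 386 against lung CD44low, and 2934 DEGs against LN and BM CD44high, 1764 of them higher in place of 1144. Of the genes lower than in lung CD44low, 840, a filter of 5 TPM left 525, a filter over all 14 libraries gave 1350, and leaving out lung CD44low library 2 gave 559. With no minimum difference, 2317 genes were higher and 3299 lower against MFP, and 3793 were called against lung CD44low and 6413 against LN and BM CD44high. Leaving out each library in turn gave 705 to 988 higher and 1125 to 1262 lower genes against MFP, 952 to 1290 against lung CD44low and 1721 to 2156 against LN and BM CD44high. With the replicate block the counts were 837 higher and 1241 lower against MFP, 1196 against lung CD44low and 1949 against LN and BM CD44high. Median-ratio scaling gave 898 higher and 1067 lower against MFP, and turned 1144 higher and 809 lower against LN and BM CD44high into 831 and 1032. Rescaling without mitochondrial and ribosomal RNA, chosen after seeing the data, moved the latter to 1445 and 760 and gave 1063 higher and 1161 lower against MFP and 515 and 734 against lung CD44low. Of 210 named genes called against MFP, 175 were called in every alternative that gave a value, and 0 of the named genes reversed. The cause of these shifts was not tested. TPM give no depth, so precision at low values could not be set.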
